A study of Mus musculus with 4 samples.

Results

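The genes described here are 36 genes of the interferon response, taken from the 28315 genes with at least 1 probe well above background on the arrays. Each gene was found by its name among the non-control probes, and a gene with several probes was represented by the probe with the highest mean signal over the 4 arrays. The 36 genes had 47 probes, and 35 of the genes were well above background on every array (21541 of all genes were).

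RNA was measured on 4 Agilent 1-colour arrays, 1 for each combination of donor genotype and cell population. Long-term haematopoietic stem cells (LT-HSC, sorted as CD34- Flt3- cells) or multipotent progenitors (MPP, sorted as CD34+ Flt3+ cells) came from the LSK fraction of the marrow (lineage-negative, Sca-1+, Kit+) of male C57BL/6J mice aged 10 weeks. Donor mice of the control groups were wild type (WT), and those of the other groups had a conditional knockout of the kinase p38 (cKO); the study's title names p38 alpha. All cells, WT included, were stained with the dye CFSE, injected into congenic Ly5.1 mice irradiated with 9.5 Gy, and sorted again from the host marrow as CFSE-positive cells after 16 h. The driver of the deletion, the exons removed and the number of mice behind each array were not given in the sources used here. Every group had 1 array, so the spread within a group is unknown, differences are given by size, and "higher" or "lower" refers to arrays, not to a genotype or a population.

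Interferons are secreted cytokines that bind receptors on the cell surface and activate Janus kinases, which phosphorylate STAT proteins. STAT2 acts with IRF9 in a complex that binds the interferon-stimulated response element (ISRE), and interferon gamma acts through the gamma-activated site (GAS). The genes that follow encode antiviral effectors, sensors of foreign nucleic acid and members of the pathway itself, and interferon is known to act on haematopoietic stem cells, where it can draw resting cells into division.

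Promoter stretches of some of these genes are shown first, since the ISRE is the element the pathway is known to act through. RefSeq promoters (mouse GRCm38.p6, 250 bases before to 50 after each start) were held for 28 of the 36 genes. An ISRE core, searched as TTTC, any 2 bases and TTTC again (on the other strand GAAA, any 2 bases and GAAA), was found in 16 of the 28 (57.1%), against 3.99% of all 27025 genes with a promoter in the table. The GAS letters TTCNNNGAA, which read the same on both strands, were found in 8 of the 28 (28.6%), against 9.55% of all genes. By promoter, of which a gene can have several, the shares were 47.1% of 34 against 3.44% of 32851 for the ISRE core and 23.5% against 8.30% for the GAS. A match of letters is a description and shows no binding. In 7 genes the core occurred more than once, and matches of one gene could overlap (Oas1a, Gbp3, Bst2 and Isg15); in Bst2 and Ifitm3 a GAS match overlapped an ISRE match. The stretches below, from upstream of the start, were chosen to cover 3 genes with large differences between arrays (Stat2, Gbp2 and Cxcl10), 3 with repeated cores (Ifit1, Ifit3 and Isg15) and 1 of the opposite direction (Ifitm2). They run 5′ to 3′ on the strand of the gene, and capitals mark the ISRE cores.
Stat2: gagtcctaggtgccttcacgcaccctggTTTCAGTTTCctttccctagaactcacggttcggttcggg
Gbp2: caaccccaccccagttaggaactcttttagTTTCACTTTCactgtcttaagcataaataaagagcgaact
Cxcl10: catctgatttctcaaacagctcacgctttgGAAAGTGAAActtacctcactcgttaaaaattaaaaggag
Ifit1: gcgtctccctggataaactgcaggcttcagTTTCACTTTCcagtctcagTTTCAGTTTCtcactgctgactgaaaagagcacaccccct
Ifit3: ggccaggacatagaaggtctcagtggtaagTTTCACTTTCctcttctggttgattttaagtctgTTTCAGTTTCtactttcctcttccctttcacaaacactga
Isg15: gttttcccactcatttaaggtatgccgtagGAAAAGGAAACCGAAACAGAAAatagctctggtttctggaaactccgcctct
Ifitm2: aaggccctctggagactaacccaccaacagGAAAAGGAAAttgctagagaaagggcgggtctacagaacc
On GRCm38.p6 these lie at chr10:128270248-128270315 (plus strand) for Stat2, chr3:142620574-142620643 (plus) for Gbp2 and chr5:92349063-92349132 (minus) for Cxcl10. Ifit1 lies at chr19:34640755-34640843 (plus) and Ifit3 at chr19:34583343-34583446 (plus). Isg15 lies at chr4:156200845-156200926 (minus) and Ifitm2 at chr7:140955968-140956037 (minus). The core of Stat2 sat at -222 to -213 from the start, that of Gbp2 at -59 to -50, that of Cxcl10 at -213 to -204 and that of Ifitm2 at -46 to -37. In Isg15, 3 overlapping cores followed each other between -78 and -57.

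The arrays lay on 1 slide and were read in 1 scan, with 62.5% to 70.5% of the 59305 spots of an array well above background and 0 spots saturated. Mapk14, which encodes p38 alpha, gave a cKO minus WT log2 difference of -0.58 (LT-HSC) and 0.13 (MPP) at its brighter probe, and of 0.13 and -0.03 at the other. With the deleted exons not given, neither probe checks the genotype labels, so cKO means the array labelled cKO. Cd34 and Flt3, which the sort used, were lower on the LT-HSC array in WT (-2.99 and -1.80) and in cKO (-1.02 and -1.16). Cd34 was 1.70 higher on the cKO than on the WT LT-HSC array, and Flt3 0.18 higher. Il7r of the same marker list went the other way (at least 47.8-fold higher on the LT-HSC array in WT and at least 20.04-fold in cKO), as did Ccr9. The 8 LT-HSC markers did not separate the populations, with 1 higher and 1 lower by 2-fold in each genotype and medians of 0.01 in WT and 0.16 in cKO. The arrays labelled LT-HSC also carried transcripts that go against a pure stem cell label. Of 9 B cell markers, 8 were 2-fold higher on the LT-HSC than on the MPP array in WT and 7 in cKO, with summed signals of 17288 (WT LT-HSC), 9084 (cKO LT-HSC), 2928 (WT MPP) and 3490 (cKO MPP). Ms4a1, Ebf1 and Igll1 were not well above background on either MPP array. Of 11 markers of the plasmacytoid dendritic cell, a cell known for interferon production, 10 were 2-fold higher on the LT-HSC array in WT and 9 in cKO, with summed signals of 28671 (WT LT-HSC), 16107 (cKO LT-HSC), 6361 (WT MPP) and 6205 (cKO MPP). Spib was among them (7.34 in WT and 6.07 in cKO), whereas Siglech, a defining marker of that cell, differed by -0.02 and 0.04. Fewer cells of a type and less RNA per cell cannot be told apart in bulk RNA.

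Signals below are the scanner software's processed signals on a linear scale. Differences are on the log2 scale after each array was scaled to its 75th percentile, so a difference of 1 is 2-fold, and ± gives the error that the scanner software attached to it. That error was 0.20 to 0.37 for the 36 genes, with a median of 0.21, and covers neither cells, sorts nor RNA preparation. Across the 4 arrays, the highest level was that of WT LT-HSC for 18 of the genes, of cKO LT-HSC for 14, of WT MPP for 4 and of cKO MPP for 0. Of the 36, 22 differed by 2-fold or more in at least 1 of the 4 comparisons. The shares of all genes were not counted for this or for the highest array, so neither can be called particular to the 36 genes.

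**Figure D1:**
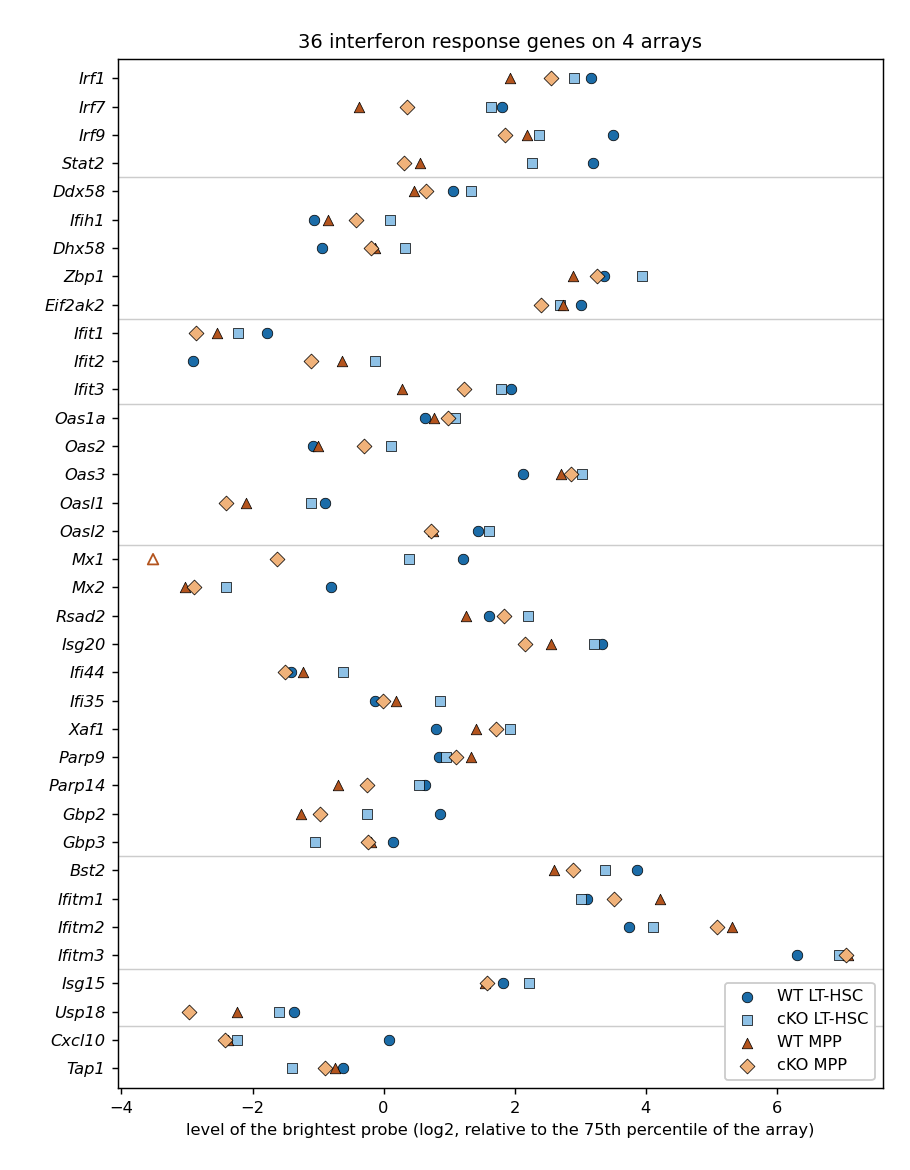
Level of each of the 36 genes on each array (x axis, log2 of the processed signal relative to the 75th percentile of the array; 1 point per array; the open triangle is not well above background), grouped from the top as signalling, sensors, Ifit, Oas, intracellular effectors, membrane effectors, Isg15 with Usp18, and Cxcl10 with Tap1. The 2 LT-HSC arrays lie right of both MPP arrays for 19 genes, among them Stat2, Irf7 and Mx1, and left of both for Parp9 and the Ifitm genes.

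The comparison of LT-HSC with MPP sets the arrays of the transplanted populations against each other within each genotype. In WT, 12 of the 36 genes were 2-fold or more higher on the LT-HSC array, where 10.7% of all genes were, and 3 were lower, where 19.3% of all genes were. In cKO, 6 were higher (8.18% of all genes) and 0 lower (6.74%). The median difference of the 36 genes was 0.42 in WT, against -0.16 over all genes, and 0.53 in cKO, against -0.04. Both LT-HSC arrays lay above both MPP arrays for 19 of the 36 genes, as for 20.6% of all genes, and below both for 4 (Ifitm1, Ifitm2, Ifitm3 and, at the brighter of its probes, Parp9), as for 31.9%. The B cell and plasmacytoid dendritic cell lists were higher on the same arrays (medians of 4.63 and 3.89 in WT, 2.96 and 2.27 in cKO). So were, by 2-fold, 6 of 9 neutrophil markers in each genotype (2 lower in WT and 1 in cKO) and 3 of 5 plasma cell markers in WT and 4 in cKO (0 lower). Of 8 stromal markers 5 were higher and 1 lower in WT, and 2 and 1 in cKO. Of 8 erythroid markers 4 were higher and 0 lower in WT, and 2 and 1 in cKO. Of 5 monocyte markers 1 was higher and 1 lower in WT, and 3 and 0 in cKO. The T and NK cell markers are given with Ifng below. Macrophage markers were lower (5 of 10 in WT, 8 of 11 in cKO). The part of these lists in the result was not tested.

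The 4 genes of signalling and induction were all 2-fold higher on the WT LT-HSC array. Stat2, the STAT specific to interferon of types I and III (probe at mm9 chromosome 10, 127729834 to 127729893), had signals of 1962 (WT LT-HSC), 976 (cKO LT-HSC), 262 (WT MPP) and 217 (cKO MPP). The LT-HSC values lay above both MPP values, by 2.65 ± 0.21 in WT and 1.96 ± 0.21 in cKO. Irf7, the factor that amplifies interferon production (chromosome 7, 148450664 to 148451014), had 749 and 629 on the WT and cKO LT-HSC arrays and 137 and 225 on the WT and cKO MPP arrays. It differed by 2.19 ± 0.21 in WT and 1.28 ± 0.20 in cKO, again without overlap between the populations.

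Irf9, the DNA-binding partner of STAT2, had signals of 2433 (WT LT-HSC), 1048 (cKO LT-HSC), 810 (WT MPP) and 632 (cKO MPP). Its highest value was that of WT LT-HSC, and the difference was 1.33 in WT against 0.52 in cKO. Irf1, a factor induced by interferon gamma and by inflammatory signals, had 1918 (WT LT-HSC), 1522 (cKO LT-HSC), 677 (WT MPP) and 1023 (cKO MPP). Both LT-HSC arrays lay above both MPP arrays, by 1.24 in WT and 0.37 in cKO, and the second probe gave 1.74 and 0.43.

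Among the effectors, Mx1 had the largest difference of the 36 genes. It encodes a dynamin-like GTPase against influenza-type viruses, and C57BL/6 mice are known to carry a defective allele. Its probe (chromosome 16, 97668644 to 97668703) had signals of 495 (WT LT-HSC), 265 (cKO LT-HSC) and 56.4 (cKO MPP), and was not well above background on the WT MPP array (15.6). Mx1 was at least 26.5-fold higher on the LT-HSC array in WT, a lower bound set by whichever is higher on the WT MPP array, the signal of Mx1 itself or the lowest signal well above background. In cKO, where both arrays measured it, it was 4.07-fold higher (2.03 ± 0.22).

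Mx2, its paralogue, had signals of 123 (WT LT-HSC), 38.0 (cKO LT-HSC), 21.9 (WT MPP) and 23.5 (cKO MPP). One array stood out, that of WT LT-HSC, so the difference was 2.23 ± 0.32 in WT and 0.48 ± 0.30 in cKO. Gbp2, a guanylate-binding GTPase induced by interferon gamma, had 387 (WT LT-HSC), 169 (cKO LT-HSC), 74.7 (WT MPP) and 88.8 (cKO MPP). Its LT-HSC values lay above both MPP values, by 2.11 in WT and 0.72 in cKO. Parp14, an ADP-ribosyltransferase, had 331 (WT LT-HSC), 293 (cKO LT-HSC), 110 (WT MPP) and 147 (cKO MPP), which is 1.33 higher on the LT-HSC array in WT and 0.79 in cKO. Isg20, an RNA exonuclease, had 2157 (WT LT-HSC), 1868 (cKO LT-HSC), 1048 (WT MPP) and 780 (cKO MPP). Its gap between the populations was 1.05 in cKO and 0.78 in WT.

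The Ifit family, whose proteins bind viral RNA, was split. Ifit3 had signals of 826 (WT LT-HSC), 700 (cKO LT-HSC), 216 (WT MPP) and 411 (cKO MPP). Both LT-HSC arrays lay above both MPP arrays, by 1.67 in WT and 0.56 in cKO. Ifit2 (chromosome 19, 34650244 to 34650303) had 28.5 (WT LT-HSC), 185 (cKO LT-HSC), 115 (WT MPP) and 81.5 (cKO MPP). It was lowest on the WT LT-HSC array and highest on the cKO LT-HSC array, so its difference was -2.27 ± 0.25 in WT and 0.97 ± 0.21 in cKO. Ifit1 was dim on every array, with signals from 24.1 to 62.3 and differences of 0.77 and 0.64.

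Among the Oas family, enzymes and enzyme-like proteins that sense double-stranded RNA, Oasl1 stood apart. It had signals of 115 (WT LT-HSC), 93.9 (cKO LT-HSC), 41.7 (WT MPP) and 32.9 (cKO MPP), and was higher on the LT-HSC array by 1.20 ± 0.23 in WT and 1.31 ± 0.24 in cKO. Oasl2 differed by 0.68 and 0.90 without reaching 2-fold. Oas1a, Oas2 and Oas3 lay between -0.59 and -0.09 in WT and between 0.11 and 0.42 in cKO.

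Genes at the cell membrane went both ways. Bst2 (tetherin), which holds budding virions at the cell surface and is abundant in plasmacytoid dendritic cells, had signals of 3133 (WT LT-HSC), 2101 (cKO LT-HSC), 1078 (WT MPP) and 1294 (cKO MPP). It was 1.28 higher on the LT-HSC array in WT and 0.49 in cKO. The Ifitm genes, whose proteins block viral entry and which stem and progenitor cells are known to express without added interferon, were higher on the MPP arrays. Ifitm2 had 2873 (WT LT-HSC), 3508 (cKO LT-HSC), 7124 (WT MPP) and 5948 (cKO MPP), a difference of -1.57 ± 0.20 in WT and -0.97 ± 0.20 in cKO. Ifitm1 had 1838 (WT LT-HSC), 1628 (cKO LT-HSC), 3314 (WT MPP) and 2000 (cKO MPP), a difference of -1.11 in WT and -0.50 in cKO. Its other probe gave -1.06 and -0.53, but has its mm9 coordinate on chromosome 8, whereas the first lies on chromosome 7. For Ifitm1 and Ifitm2 the populations did not overlap, and Ifitm3 differed by -0.77 and -0.11, the latter 0.24 with quantile normalization.

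Cxcl10, a chemokine that draws T cells, had signals of 226 (WT LT-HSC), 42.7 (cKO LT-HSC), 34.3 (WT MPP) and 32.5 (cKO MPP). At this probe it was high on 1 array only, that of WT LT-HSC, with a difference of 2.46 ± 0.25 in WT and 0.18 ± 0.25 in cKO. The dimmer second probe of Cxcl10 had 43.8 (WT LT-HSC), 74.3 (cKO LT-HSC) and 46.6 (cKO MPP), so the WT LT-HSC array did not stand out there. Usp18, the protease that removes ISG15 and holds back the receptor, had 82.5 (WT LT-HSC), 66.9 (cKO LT-HSC), 37.9 (WT MPP) and 22.4 (cKO MPP). Its difference was 0.86 in WT and 1.37 ± 0.31 in cKO. Isg15, the ubiquitin-like modifier, differed by 0.28 and 0.64, and Tap1, a peptide transporter of class I presentation, by 0.11 and -0.51.

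Of the remaining genes, sensors and intracellular effectors, 0 reached 2-fold between the populations. The RNA sensor Ddx58 (0.60 and 0.69), the nucleic acid sensor Zbp1 (0.49 and 0.69), the kinase Eif2ak2 (0.28 and 0.29) and the radical enzyme Rsad2, or viperin (0.34 and 0.36), were somewhat higher on the LT-HSC array within each genotype. For Eif2ak2 and Rsad2 the populations overlapped across genotypes. Counting Ifit2, 9 of the 36 genes (with Dhx58, Ifih1, Ifi44, Ifi35, Xaf1, Oas1a, Oas2 and Oas3) were lower on the LT-HSC array in WT and higher in cKO. The share of all genes with this order was not counted. The second probe of Xaf1 went the other way in both genotypes (at least 11.8-fold higher in WT, -0.67 in cKO), and that of Oas1a gave -0.04 in cKO. Parp9 was lower in both at its brighter probe (-0.48 and -0.16), while its second probe gave 0.12 and 0.19. Gbp3 differed by 0.33 in WT and -0.81 in cKO.

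**Figure D2:**
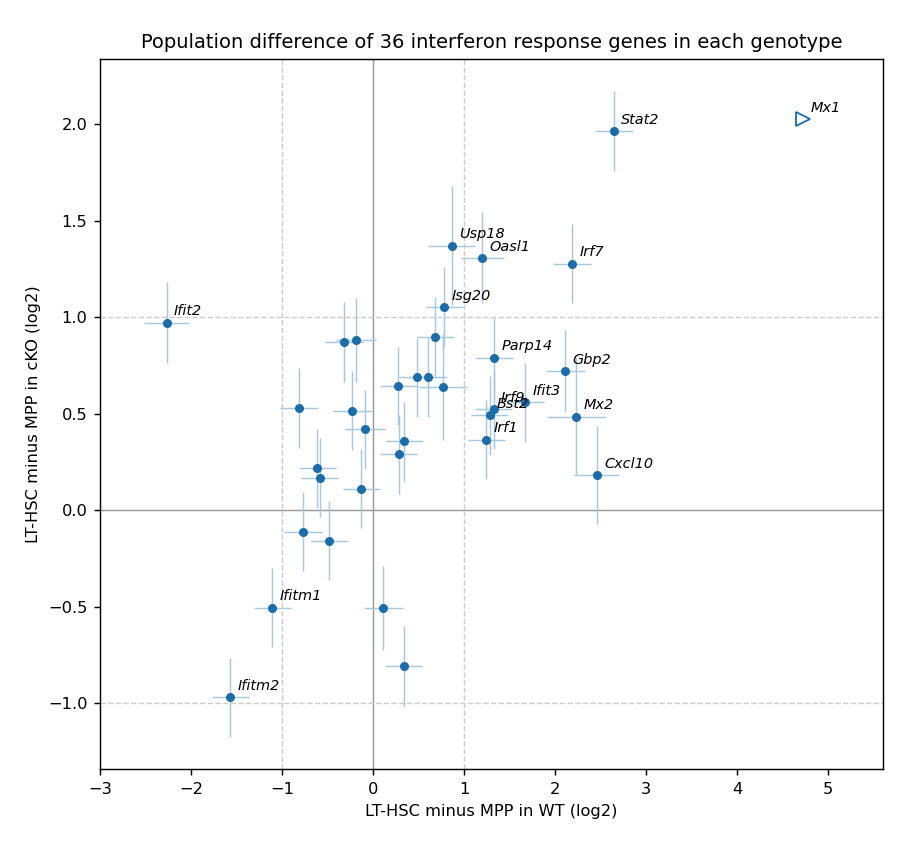
LT-HSC minus MPP difference of each of the 36 genes in WT (x axis, log2) and in cKO (y axis, log2), with bars for the scanner software's error, dashed lines at 2-fold, and an open triangle for Mx1, whose WT value is a lower bound. Stat2, Irf7, Oasl1 and Mx1 lie beyond 2-fold on both axes, Ifit2 lies left of 0 and above it, and Ifitm2 and Ifitm1 lie below 0 on both.

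A shared population difference was tested with limma on all 4 arrays, with genotype and population as additive terms and 1 residual degree of freedom. After Benjamini-Hochberg adjustment over 28315 genes, 0 of the 36 genes passed 0.05 for population, as did 0% of all genes. At an unadjusted p under 0.05, 7 of the 36 were higher in LT-HSC (6.08% of all genes) and 1 lower (7.4%). The 7 were Stat2, Irf7, Oasl1, Mx1 (with its dim WT MPP value), Usp18, Parp14 and Isg20, and the 1 was Ifitm2. The count higher was 17 with normexp and quantile normalization (2339 of 28315 genes) and 12 with a variance trend (1843), against 1722 of all genes in the fit above. With 1 residual degree of freedom, an adjusted p that misses the threshold does not show that values did not differ. The smallest adjusted p was that of Stat2, 0.27 for a shared difference of 2.30 (SE 0.34), higher on the LT-HSC array in both genotypes. Across the alternative settings the smallest adjusted p among the 36 ranged from 0.08 to 0.28.

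Setting cKO against WT in LT-HSC asks how loss of p38 alters stem cells early after transplantation. It uses the WT LT-HSC array that also served above, with the opposite sign, so a value of that array enters both comparisons. Of the 36 genes, 5 were 2-fold higher on the cKO array (10.8% of all genes) and 5 lower (8.26%). The higher genes were Ifit2, Dhx58, Oas2, Ifih1 and Xaf1, and the lower ones Cxcl10, Mx2, Gbp3, Irf9 and Gbp2. The median of the 36 was -0.09, against 0.12 over all genes, and 17 of 36 lay above 0, against 58.8% of all genes. With normexp background correction and quantile normalization, 2 were higher and 2 lower, and the shares of all genes were not counted for that setting.

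Of the 5 sensor genes, 2 were among the higher ones (Dhx58 and Ifih1). Zbp1 (0.58) and Ddx58 (0.28) lay above 0 and Eif2ak2 below it (-0.32). Dhx58 (LGP2), a regulator of the other RNA helicase sensors, had signals of 255 (cKO LT-HSC), 111 (WT LT-HSC), 153 (cKO MPP) and 163 (WT MPP). Its difference between genotypes was 1.28 ± 0.21 in LT-HSC and -0.07 ± 0.21 in MPP. Ifih1 (MDA5), a sensor of long double-stranded RNA, had 217 (cKO LT-HSC), 102 (WT LT-HSC), 131 (cKO MPP) and 99.7 (WT MPP). Both cKO arrays lay above both WT arrays, by 1.17 for LT-HSC and by 0.43 for MPP, while the second probe gave 1.16 and -0.54. With normexp and quantile normalization the LT-HSC differences were 0.94 for Dhx58 and 0.84 for Ifih1, both under 2-fold.

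Oas2, a 2′-5′-oligoadenylate synthetase that activates RNase L, had signals of 219 (cKO LT-HSC), 101 (WT LT-HSC), 142 (cKO MPP) and 89.5 (WT MPP). It too was higher on both cKO arrays, by 1.20 ± 0.21 in LT-HSC and 0.69 ± 0.21 in MPP. With normexp and quantile normalization its LT-HSC difference was 0.84, under 2-fold. Oas3 and Oas1a were also higher on both cKO arrays, with 0.91 and 0.46 in LT-HSC and 0.15 and 0.22 in MPP. The second probe of Oas1a gave 2.03 in LT-HSC and -0.12 in MPP. Ifit2 had the largest difference of the 36 genes between the LT-HSC arrays, 2.78 ± 0.24, or 6.85-fold, and differed by -0.46 ± 0.21 between the MPP arrays. Its signal of 28.5 on the WT LT-HSC array was the low value behind this, and with normexp and quantile normalization the LT-HSC difference was 1.45.

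Xaf1, a pro-apoptotic factor induced by interferon, had signals of 771 (cKO LT-HSC), 372 (WT LT-HSC), 575 (cKO MPP) and 475 (WT MPP). The difference was 1.14 in LT-HSC and 0.30 in MPP. Its second probe went the other way, with signals of 19.1 (cKO LT-HSC), 219 (WT LT-HSC) and 26.3 (cKO MPP) and a difference of -3.44 in LT-HSC, so no direction is settled for Xaf1.

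On the lower side, Cxcl10 differed by -2.33 ± 0.22 in LT-HSC, or 5.01-fold, and by -0.05 ± 0.28 in MPP. Its dimmer second probe had signals of 74.3 on the cKO and 43.8 on the WT LT-HSC array and gave 0.84, so the direction was not shared by the probes. Mx2 differed by -1.62 ± 0.24 (LT-HSC) and 0.13 ± 0.37 (MPP). Mx1 stood at -0.82 ± 0.20 between the LT-HSC arrays. Both Mx genes were lower on the cKO LT-HSC array, and stayed above the MPP arrays there.

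Gbp3, another guanylate-binding GTPase, had signals of 98.2 (cKO LT-HSC), 236 (WT LT-HSC), 149 (cKO MPP) and 156 (WT MPP). It was lowest on the cKO LT-HSC array, with a difference of -1.18 ± 0.21 in LT-HSC and -0.04 ± 0.21 in MPP. Gbp2 stood at -1.11 (LT-HSC) and 0.28 (MPP). All 4 signalling genes lay below 0 in LT-HSC, where Irf9 reached 2-fold (-1.13 ± 0.20), Stat2 stood at -0.93, Irf1 at -0.25 and Irf7 at -0.17. The second probe of Irf1 differed by -2.26. Markers of the B cell (6 of 9 lower by 2-fold, median -1.05), the plasmacytoid dendritic cell (5 of 11 lower, 0 higher, median -0.79) and stroma (5 of 8 lower, 2 higher, summed signal 6648 on the WT and 1154 on the cKO array) were lower on the same cKO LT-HSC array. Markers of the monocyte were higher there (4 of 5, median 1.78, summed signal 12647 on the cKO and 10424 on the WT array, with Ly6c2 not measured). Their part in the result was not tested.

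Between the MPP arrays 1 of the 36 genes was 2-fold higher in cKO (2.43% of all genes) and 0 lower (2.8%). The 1 was Mx1, at least 3.69-fold higher on the cKO array by its bound, against -0.82 between the LT-HSC arrays. With normexp and quantile normalization the Mx1 difference in MPP was 0.74. Ifit3 (0.96 ± 0.21), Irf7 (0.74 ± 0.21), Oas2 (0.69) and Irf1 (0.63) were the next higher, all above 1.5-fold, and Usp18 (-0.73 ± 0.34) and Ifitm1 (-0.70 ± 0.20) were lower by more than 1.5-fold. The second probe of Irf1 differed by -0.95 in MPP. The median of the 36 was -0.03, against -0.05 over all genes. Macrophage markers were higher on the same cKO MPP array (9 of 11 by 2-fold, summed signal 13715 against 7747 on the WT MPP array), and their part in the result was not tested.

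**Figure D3:**
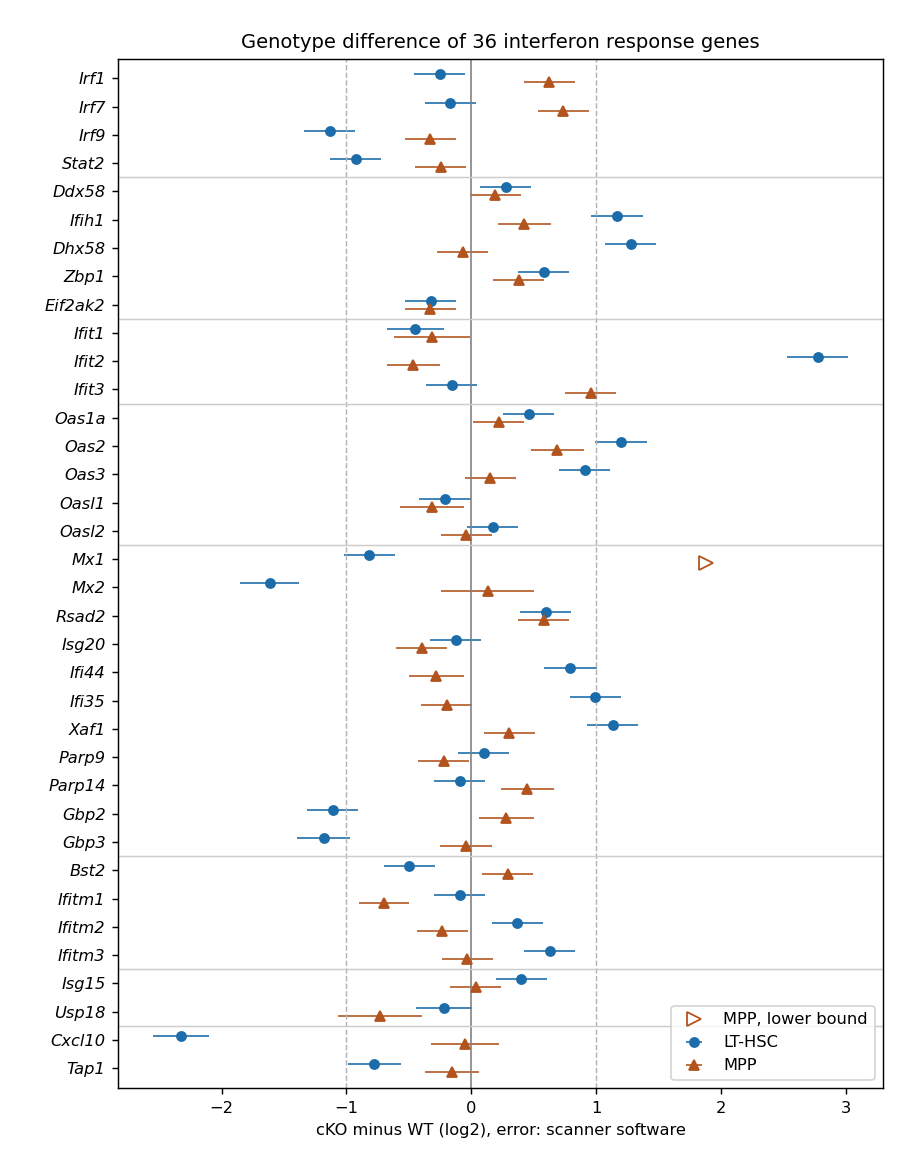
cKO minus WT difference (log2) of each of the 36 genes in LT-HSC and in MPP, with bars for the scanner software's own error and dashed lines at 2-fold; the MPP value of Mx1 is a lower bound. In LT-HSC the values reach from -2.33 (Cxcl10) to 2.78 (Ifit2), while in MPP only Mx1 lies beyond 2-fold.

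Taken over both populations, both cKO arrays lay above both WT arrays for 6 of the 36 genes (14.3% of all genes) and below both for 3 (11.8%). The 6 were Ifih1, Oas1a, Oas2, Oas3, Rsad2 and Xaf1, and the 3 were Eif2ak2, Gbp3 and Tap1. Both counts lay near the shares of all genes. At second probes the order did not hold for Ifih1 (-0.54 in MPP), Oas1a (-0.12 in MPP) and Xaf1 (-3.44 in LT-HSC). Rsad2 had nearly equal differences, 0.60 for LT-HSC and 0.58 for MPP. Eif2ak2, the kinase PKR, stood at -0.32 and -0.33. In the additive limma fit 0 of the 36 genes passed an adjusted p of 0.05 for genotype, as did 0% of all genes, and 0 had an unadjusted p under 0.05 (1.94% of all genes higher and 1.57% lower). The smallest adjusted p of the 36 was 0.97, for example that of Cxcl10 with a fitted difference of -1.19. That value combined -2.33 in LT-HSC with -0.05 ± 0.28 in MPP, the latter within the scanner software's error. The second probe of Cxcl10 was positive in each population, with 0.84 in LT-HSC and at least 2.62-fold higher on the cKO array in MPP. Over the alternative settings the smallest adjusted p ranged from 0.93 to 0.99.

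Of the 28 genes with a promoter, the 16 with an ISRE core had a median LT-HSC minus MPP difference of 0.34 in WT, with 5 higher and 1 lower by 2-fold. The 12 without one had a median of 0.40, with 4 higher and 2 lower. In cKO the medians were 0.42 and 0.88. Between genotypes in LT-HSC they were 0.06 and -0.11, with 1 higher and 3 lower of the 16 with a core and 2 higher and 1 lower of the 12 without. In WT the population differences ran from -1.57 to 2.65 with a core and from -2.27 to 2.19 without one. Stat2 and Ifitm2, both with 1 core among the stretches printed above, marked the ends of the range of genes with a core.

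A second probe was present for 11 of the genes. Those of Ddx58, Ifih1, Ifitm1, Isg15, Isg20, Irf1 and Cxcl10 kept the direction of the population difference in both genotypes. Those of Parp9 and Xaf1 reversed it in both, that of Zbp1 in WT (-0.67 against 0.49) and that of Oas1a in cKO. Zbp1 gave 2.21 between the LT-HSC arrays at its second probe against 0.58 at the brighter one, and Oas1a gave 2.03 against 0.46. For Oas1a the second probe also differed between the populations in WT (-2.19 against -0.13). Oas genes share sequence with near-identical copies, so which copy a probe reads is uncertain. The second probe of Ifitm1 has its coordinate on chromosome 8 and the first on chromosome 7, so what the second reads is uncertain too.

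Other genes of the pathway were taken from lists, given by their counts at 2-fold. Each count is to be read against the share of all genes at 2-fold: 10.7% higher and 19.3% lower on the LT-HSC array in WT, 8.18% and 6.74% in cKO, 10.8% and 8.26% for cKO against WT in LT-HSC, and 2.43% and 2.8% in MPP. Of 21 interferon genes, 15 were on the array under their names, and 7 to 11 could be compared between a pair of arrays. The largest differences were those of Ifng, the type II interferon made by T and NK cells, with signals of 373 (WT LT-HSC), 69.2 (cKO LT-HSC) and 13.6 (cKO MPP), and not well above background on the WT MPP array (12.0). It was at least 20.2-fold higher on the LT-HSC array in WT, 4.41-fold higher in cKO (2.14) and differed by -2.35 between cKO and WT in LT-HSC. Of 10 T and NK cell markers, 7 were 2-fold higher on the LT-HSC array in WT and 6 in cKO, with summed signals of 11040 and 10069 on the WT and cKO LT-HSC arrays and 6659 and 6549 on the MPP arrays; Cd3g, Cd2, Klrb1c and Cd8a were not well above background on either MPP array. Between the LT-HSC arrays 3 of the 10 were 2-fold lower in cKO (Klrb1c at -1.90, Gzma at -1.39 and Cd3g at -1.12) and 0 higher. Their part in the Ifng differences was not tested. Among 11 measured ligands, Ifnab (2.82-fold), Ifna5 (at least 2.65-fold) and Ifnk (at least 2.36-fold) were higher on the cKO LT-HSC array at signals of 26.1 to 51.9, and Ifna5 was at least 2.32-fold higher on the LT-HSC than on the MPP array in cKO.

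Of 9 receptor and kinase genes, 2 were 2-fold higher and 2 lower on the LT-HSC array in WT, and 2 higher and 0 lower in cKO, too few genes to set against these shares. Ifnar1, a chain of the type I receptor, had signals of 797 (WT LT-HSC), 919 (cKO LT-HSC), 340 (WT MPP) and 203 (cKO MPP), so it was 0.97 higher on the LT-HSC array in WT and 1.97 in cKO. Ifnar2, the other chain, differed by -0.51 and 0.12. The type II receptor chains Ifngr1 (0.85 and 0.37) and Ifngr2 (0.07 and 0.22) and the kinase Jak1 (0.45 and 0.04) stayed under 2-fold, whereas Jak2, the kinase of the type II receptor, was higher on both LT-HSC arrays (1.26 and 1.19). Tyk2, the kinase of the type I receptor, differed by -1.37 in WT and 0.11 in cKO. The type III receptor chains were dim: Il28ra was at least 3.62-fold higher on the LT-HSC array in WT and differed by 0.22 in cKO, and Il10rb, shared with the IL-10 receptor, was at least 4.68-fold lower in WT and differed by -0.29 in cKO.

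Between genotypes, 2 of the 9 receptor and kinase genes were 2-fold higher on the cKO LT-HSC array (Tyk2 at 1.23 and Il10rb at least 3.38-fold) and 1 on the cKO MPP array (Il28ra, at least 2.08-fold), with 0 lower in either. In LT-HSC the other differences were 0.29 for Ifnar1, 0.55 for Ifnar2, -0.22 for Ifngr1, 0.03 for Ifngr2, -0.59 for Jak1, -0.39 for Jak2 and -0.58 for Il28ra. In MPP Ifnar1 stood at -0.72, and the others but Il28ra lay between -0.32 and 0.26.

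Of 19 STAT, IRF and feedback genes, 6 were 2-fold higher on the LT-HSC array in WT and 7 in cKO, with 0 lower in either (31.6% higher in WT and 36.8% in cKO; medians 0.52 and 0.43). Irf4, a factor of lymphoid cells, was at least 32.4-fold higher in WT and at least 36.7-fold in cKO. Irf8, a factor of dendritic cells and monocytes that is also in the plasmacytoid list, differed by 3.16 and 2.27. The feedback inhibitor Cish differed by 2.81 in WT, and Socs1, another, was at least 3.45-fold higher in cKO. Between the LT-HSC arrays 1 of the 19 was higher in cKO (Pias1, 2.83-fold) and 3 lower (Irf2bp1 at -1.60, Cish at -1.56 and Socs3 at -1.18), and between the MPP arrays 0 of 17 reached 2-fold.

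Of 50 other interferon-induced genes measured in WT, 14 were 2-fold higher on the LT-HSC array and 1 lower (Lgals9, -1.12), and of 51 in cKO 16 were higher and 1 lower (Tgtp1, -1.57). The shares higher were 28.0% and 31.4%. Gbp4, a guanylate-binding GTPase, was at least 11.3-fold higher in WT and at least 10.5-fold in cKO. Ifi27l2a differed by 3.33 and 2.81. Slfn1, of the Schlafen family, differed by 2.77 in WT, and Ifi30, a lysosomal thiol reductase, by 2.16 in cKO. Between the LT-HSC arrays 2 of 51 were higher in cKO (Irgm2 at 1.21 and Oas1g at least 2.06-fold) and 2 lower (Tgtp1 at -1.66 and Parp10 at -1.14), fewer than the share of all genes in each direction. Between the MPP arrays 2 of 48 were higher in cKO (Slfn1 at 1.17 and Gbp6 at 1.07).

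Sensing receptors and adaptors showed no common direction, and their counts between the populations in WT lay near the shares of all genes. In WT 2 of 20 were 2-fold higher on the LT-HSC array (the kinase Ikbke at 2.75 and Unc93b1, which carries Toll-like receptors to endosomes, at 2.18) and 3 lower (Tlr4, at least 4.74-fold, Ticam2, at least 3.94-fold, and Rnf135 at -1.19). In cKO 3 of 20 were higher (Ikbke at 1.84, Tank at 1.34 and Tlr7 at 1.14) and 2 lower (Ticam2, at least 2.87-fold, and Traf6 at -1.28). Between the LT-HSC arrays Myd88 was higher in cKO (1.24) and Ikbke lower (-1.26), of 19 measured. None of 20 reached 2-fold between the MPP arrays.

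Of 18 genes of class I presentation and interferon-induced chemokines, 3 were 2-fold higher on the LT-HSC array in WT (the chemokine Ccl5 at 2.09, the checkpoint ligand Cd274 at 1.64 and the class I transactivator Nlrc5 at 1.46) and 2 lower (Tap2 at -1.07 and the immunoproteasome subunit Psmb8 at -1.04). In cKO only Ccl5 was (2.60). Between genotypes Tap2 was higher on the cKO LT-HSC array (1.02) and the chemokine Cxcl9 on the cKO MPP array (1.07), with 0 of 18 lower in either population.

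**Figure D4:**
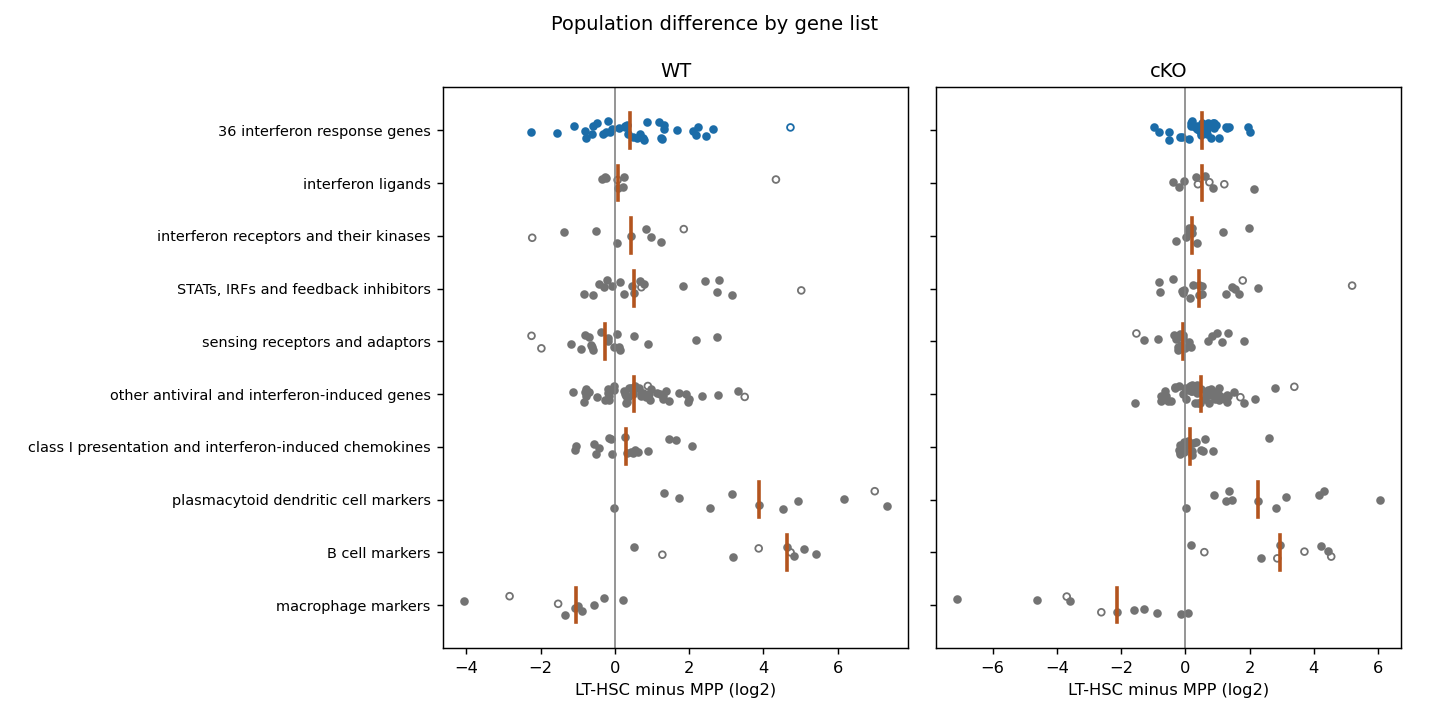
LT-HSC minus MPP differences (x axes, log2) in WT and in cKO of the 36 genes, the 6 lists of other pathway genes and 3 marker lists, with 1 point per gene, open points for bounds and a bar at the median of each list. The lists of STAT, IRF and feedback genes and of other interferon-induced genes have medians of 0.52 in WT, the sensing list of -0.27 and the B cell markers of 4.63.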

How the data were processed

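The deposited scanner files held spot intensities on a linear scale; per the file headers they came from Agilent Feature Extraction 10.7.3.1 with probe coordinates on mm9, while the submitters' processing notes give version 9.5.3. The processed signal was background-subtracted within each array, per the file headers. Spot flags (a score of 0 or 1, per the file headers) mark outliers, left out here, and spots well above background. The authors' deposited series table held linear ratios to each probe's own level. Its log2 differences between arrays matched those of the scanner values (r = 1 across probes), so its direction is known. Its scaling between arrays was that of the values reported here, while the rule for each probe's own level is not known. The column medians were 91.9 and 97.5 for the LT-HSC arrays (WT, cKO) and 107.3 and 102.4 for the MPP arrays (WT, cKO). From the deposited intensities, log2 values minus each array's 75th percentile were computed, with spots of a probe averaged; the highest mean was taken over log2 values, and probes not well above background on any array were left out. Gene names are the array's own. A gene well above background on only 1 array of a pair was given a bound.

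Pairs of arrays were compared by size, without a test; the number of arrays limits the precision. limma 3.58.1 (R 4.3.3; lmFit, eBayes, additive terms) ran over all 28315 genes and was tested on simulated data. Genes at 2-fold in at least 1 comparison and well above background on at least 3 arrays are given with all 4 signals; of other lists at most the 3 largest differences per direction at 2-fold are named, and every receptor and kinase. The members and lists were chosen with earlier results of these data known. Alternatives covered scaling, background correction, probe choice, the filter, the fold and the variance model. Promoters were matched by symbol; 8 genes had no entry.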

Additional observations from a re-analysis of the deposited data

Results flagged for a closer look

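Opposite directions in the groups compared, each beyond the scanner software's error by a factor of 2, were found for 3 of the 36 genes, with the share of all genes not counted. Ifit2 was higher on the cKO array in LT-HSC (2.78) and lower in MPP (-0.46), and the same 4 values gave a lower LT-HSC than MPP level in WT (-2.27) and a higher one in cKO (0.97). Mx1 was lower on the cKO array in LT-HSC (-0.82) and higher in MPP (1.88, a lower bound). Dhx58 was lower on the LT-HSC than on the MPP array in WT (-0.82) and higher in cKO (0.53). With 1 array per group these differences between groups were not tested.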

How the results depend on the processing

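No paired analysis was possible because each group had 1 array and the labels carry no replicate numbers. Of the 32 differences of 2-fold or more among the 36 genes, 31 kept direction and size with the percentile taken over probes that every array measured, 31 with quantile normalization, 20 with normexp and quantile normalization and 30 with probes of a gene averaged. The authors' table kept 32, but its scaling between arrays is that of the values reported here, so it is no separate check. For cKO against WT in LT-HSC, normexp and quantile normalization gave 2 higher and 2 lower, and a 1.5-fold limit 10 and 8. In MPP the 1 higher gene became 2 with that percentile, 0 with normexp and quantile normalization, 0 with genes well above background on all arrays (Mx1 is then left out) and 2 with the next brightest probe; at 1.5-fold 5 were higher and 2 lower. For LT-HSC against MPP, 7 were lower in WT at 1.5-fold, 16 higher and 2 lower in cKO, and the WT median was 0.64 with quantile normalization. The shares of all genes were not counted at 1.5-fold or, at 2-fold, under these alternatives. These counts can therefore not be called particular to the 36 genes. Xaf1 in LT-HSC reversed to -1.15 with the mean of its probes and -3.44 with the next brightest, and Cxcl10 to 0.84 with the next brightest; the cause was not tested. The next brightest probe and the brightest by linear mean were alternatives chosen after seeing the data; the latter changed the probe of Oas1a alone. Scaling moved the median of all genes in the WT population comparison from -0.16 to between 0.00 and 0.01 with the other percentile and both quantile settings. The authors' table, with the same scaling between arrays, gave -0.12, its bounds for dim genes being set on other values. The median of the 36 minus that of all genes was 0.57 as reported and 0.40 to 0.64 otherwise. Among all genes at 2-fold, the share higher went from 56.8% to 45.2% with normexp and quantile normalization for cKO against WT in LT-HSC and from 46.4% to 63.6% in MPP; for LT-HSC against MPP it went from 35.6% to 49.9% in WT and from 54.8% to 68.4% in cKO. In the limma fits 0 of the 36 passed an adjusted p of 0.05 under every alternative. At an unadjusted p under 0.05 the 7 higher for population (1722 of all genes) became 17 (2339) with normexp and quantile normalization and 12 (1843) with a variance trend. At an adjusted p under 0.05, 232 of all genes were higher and 8 lower for population with a variance trend, 59 higher with normexp and quantile normalization, and 57 higher and 1 lower with genes well above background on all arrays. The lowest signal well above background, 11.7 to 15.4 by array, limits what can be measured of dim genes such as Mx1 on the MPP arrays.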
